A study of Homo sapiens with 11 samples.

Results

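The GAGE, PAGE, XAGE, SSX, CT45, CT47, SPANX and CTAG genes code for cancer-testis antigens, proteins made mainly in germ cells of the testis and, in some tumours, in cancer cells. Members were chosen by name: a gene symbol had to begin with GAGE, PAGE, XAGE, SSX, CT45A, CT47A, SPANX or CTAG, followed by a digit or capital letter. Of the 58699 genes in the table, 92 matched. Of these, 77 belong to the antigen families and are called antigens below: 13 GAGE, 6 PAGE, 5 XAGE, 17 SSX, 10 CT45A, 12 CT47A, 11 SPANX and 3 CTAG genes. The other 15 share only the letters: SSX2IP, whose product was named for binding SSX2, and 14 CTAGE genes. They are given apart. Of the 77 antigens, 66 are protein coding in GENCODE release 29, and 76 lie on the X chromosome. SSXP10, a processed pseudogene at 0 FPKM in all 4 groups, lies on chromosome 6.

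The RNA is from HCT116 cells, a long-established line from a human colorectal tumour. Cells carried an siRNA against luciferase (siLuc, a control with no target in human cells) or against Staufen1 (siStau1), and were given the solvent DMSO or decitabine (DAC), the labels giving 500 nM over 5 days. Each of the 4 combinations, siLuc or siStau1 with DMSO or DAC, has 2 libraries of total RNA. The deposited table holds 1 FPKM value per gene and group (fragments scaled to transcript length and library size), so no spread between libraries can be given, the depth is unknown, and no labels say whether the 2 libraries came from separate cultures.

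Decitabine is a deoxycytidine analogue that enters replicating DNA and traps DNA methyltransferases, so that methylation is lost as cells divide. The promoters of many cancer-testis genes on the X chromosome are densely methylated in somatic cells, and these genes are a classic group known to respond to such drugs. GAGE, PAGE and XAGE are related families of small acidic proteins. SSX genes code for nuclear repressors, some of which are fused to SS18 in synovial sarcoma. SPANX proteins are found in the nucleus of sperm cells, and CTAG1B codes for NY-ESO-1, a much studied target of tumour vaccines.

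Some promoter windows, picked by the levels of their genes, are printed here. Each window runs from 250 bases before to 50 bases after the gene's start in RefSeq (GRCh38.p14), 300 bases in all, 5′ to 3′ on the gene's strand. Capitals mark CpG, the dinucleotide that DNA methyltransferases modify. The first, GAGE2A (chrX:49589246-49589545, plus strand), belongs to the antigen with the highest FPKM, and it is followed by PAGE1 (chrX:49695935-49696234, minus strand), PAGE2 (chrX:55088768-55089067, plus strand), PAGE5 (chrX:55220096-55220395, plus strand) and SSX1 (chrX:48255142-48255441, plus strand), which also stood above 10 FPKM with DAC. The last, PAGE4 (chrX:49829010-49829309, plus strand), is the 1 antigen at 1 FPKM or more without DAC.
GAGE2A: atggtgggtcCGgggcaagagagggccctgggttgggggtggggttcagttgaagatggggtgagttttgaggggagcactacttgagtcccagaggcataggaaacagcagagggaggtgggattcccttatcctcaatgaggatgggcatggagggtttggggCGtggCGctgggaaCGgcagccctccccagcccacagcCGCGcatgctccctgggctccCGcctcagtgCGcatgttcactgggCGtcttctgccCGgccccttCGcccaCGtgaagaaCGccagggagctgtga
PAGE1: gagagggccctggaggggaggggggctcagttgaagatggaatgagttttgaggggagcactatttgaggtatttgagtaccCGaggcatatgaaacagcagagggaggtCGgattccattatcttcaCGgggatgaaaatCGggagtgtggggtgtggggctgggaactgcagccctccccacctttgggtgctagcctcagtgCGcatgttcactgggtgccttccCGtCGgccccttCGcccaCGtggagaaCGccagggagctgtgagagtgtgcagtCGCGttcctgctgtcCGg
PAGE2: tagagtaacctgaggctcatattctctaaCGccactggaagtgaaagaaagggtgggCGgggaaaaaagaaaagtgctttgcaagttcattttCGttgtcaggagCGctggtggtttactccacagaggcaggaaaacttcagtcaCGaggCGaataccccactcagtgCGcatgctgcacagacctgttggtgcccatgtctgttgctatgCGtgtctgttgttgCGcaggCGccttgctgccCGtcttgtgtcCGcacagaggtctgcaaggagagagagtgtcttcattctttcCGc
PAGE5: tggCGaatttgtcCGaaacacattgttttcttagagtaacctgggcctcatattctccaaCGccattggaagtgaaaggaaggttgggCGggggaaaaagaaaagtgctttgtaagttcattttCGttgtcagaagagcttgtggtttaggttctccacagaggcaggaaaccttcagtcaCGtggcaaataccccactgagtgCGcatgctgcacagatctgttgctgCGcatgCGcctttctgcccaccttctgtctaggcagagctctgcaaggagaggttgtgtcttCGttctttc
SSX1: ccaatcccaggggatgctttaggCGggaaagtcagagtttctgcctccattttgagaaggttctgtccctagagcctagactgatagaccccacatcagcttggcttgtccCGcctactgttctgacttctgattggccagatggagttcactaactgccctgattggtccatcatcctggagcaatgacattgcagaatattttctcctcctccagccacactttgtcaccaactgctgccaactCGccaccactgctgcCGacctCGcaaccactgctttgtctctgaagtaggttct
PAGE4: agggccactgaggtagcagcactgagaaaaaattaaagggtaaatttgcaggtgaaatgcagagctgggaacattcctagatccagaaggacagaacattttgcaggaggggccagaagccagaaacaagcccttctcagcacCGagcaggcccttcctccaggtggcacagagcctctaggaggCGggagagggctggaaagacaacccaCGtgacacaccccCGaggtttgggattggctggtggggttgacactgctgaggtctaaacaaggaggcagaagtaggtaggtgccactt

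These windows held 13 CpG in GAGE2A, 13 in PAGE1, 13 in PAGE2, 10 in PAGE5, 5 in SSX1 and 4 in PAGE4. RefSeq windows lay within 1000 bases of the GENCODE start for 37 of the 77 antigens. The median over these 37 was 10 CpG, with a range from 1 to 17. The median was 14 over all 35116 RefSeq promoters of the same length, and 5 over the 3012 promoters of other protein-coding genes listed at 0 in both DMSO groups. The median was 10 over the 14 antigens at 1 FPKM or more in a DAC group. It was also 10 over the 23 under 1 FPKM in both. These medians cannot show whether CpG number goes with level, since some promoters occur in both sets. GAGE12C, GAGE12D and GAGE12E, listed at 0 in all groups, have the same window as GAGE2A, GAGE12H and GAGE12J in the higher set. Transcripts of these copies are near-identical, so the level of one cannot be told apart from that of another.

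Short motifs were searched on both strands in the same windows. CCGGAA, the core letters of sites for ETS factors, was in 0 of 37 antigen promoters and in 17.2% of all RefSeq promoters. GGGCGG, a GC box, was in 4 of 37 (PAGE2, PAGE2B, PAGE5 and XAGE3) against 45.0% of all. TATAAA was in 0 of 37 against 11.5%. In the 3012 promoters of other protein-coding genes listed at 0 in both DMSO groups, the shares were 8.17% for CCGGAA, 30.6% for GGGCGG and 20.1% for TATAAA. A match is a run of letters, and its use by a factor was not measured. Since many antigens are copies of each other, these 37 windows hold only 31 distinct sequences.

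Without DAC, nearly all antigens were listed at 0. In both DMSO groups 71 of 77 stood at 0, which in a table without counts can also be a failed estimate, and 52.6% of all 58699 genes stood there too. At 1 FPKM or more there was 1 antigen in siLuc DMSO (PAGE4) and 0 in siStau1 DMSO. With DAC the number was 15 in siLuc and 17 in siStau1, of which 14 were in both. With a lower limit of 0.1 FPKM, 28 antigens in siLuc DAC and 27 in siStau1 DAC counted as present. The summed FPKM of the antigens was 1.67 without and 301 with DAC in siLuc cells, and 1.11 and 243 in siStau1 cells. The sum with DAC is 0.0501% of that over all protein-coding genes in siLuc and 0.0446% in siStau1. PAGE genes held 39.6% and GAGE genes 33.0% of the antigen sum in siLuc DAC, and 45.8% and 27.4% in siStau1 DAC.

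**Figure D1:**
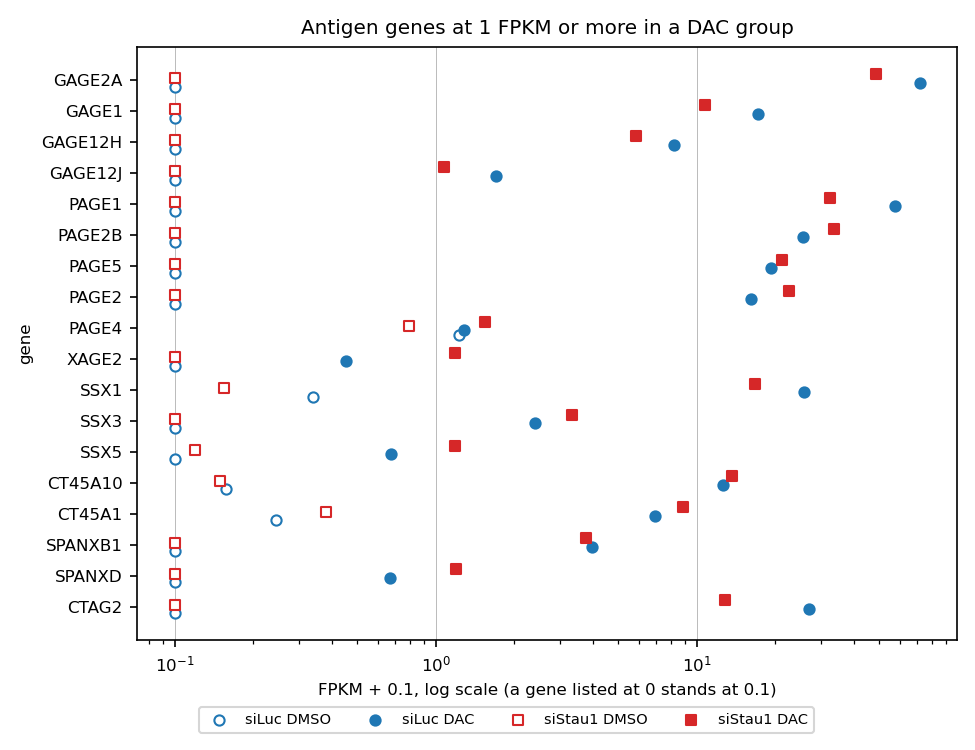
FPKM + 0.1 on a log axis for the 18 antigen genes at 1 FPKM or more in either DAC group, 1 point per group, open for DMSO and filled for DAC, circles for siLuc and squares for siStau1. There are no error bars, since the table gives 1 value per group. GAGE2A stands highest at 71.6 FPKM in siLuc DAC, and the 2 siLuc points of PAGE4 lie close together, at 1.13 and 1.19 FPKM.

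The authors' deposited table gives a q-value for each gene and pair of groups, and a gene is called here where that q is under 0.05. By the authors' deposited table, 17 antigens rose with DAC in siLuc cells, of 20 tested. Over all genes tested in that comparison 8.71% were called higher and 4.78% lower. In siStau1 cells 13 antigens rose, of 19 tested, where 4.56% of all genes tested were called higher and 2.89% lower. No antigen was called lower in either arm, by q or by an unadjusted p under 0.05. The antigens that were tested had passed the authors' filter mostly through their level with DAC, so the share of tested antigens that rose is not a share of the 77. Both arms called 12 of the same antigens, and 18 were called in at least 1 arm. Every antigen called, with SSX1 in siLuc as the 1 exception, was listed at 0 with DMSO in that arm, so no fold change can be given for it. A call in 1 arm and not in the other does not show that the arms differ.

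Over all 77 antigens the median log2 ratio of FPKM + 0.1 was 0 in both arms, as it was over all genes of the table, since most stood at 0 in both groups.

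The share of genes called differed with how low they stood without DAC, so antigens at 5 FPKM or more with DAC are given beside genes of like levels. Antigens called from 0 at under 5 FPKM with DAC, such as SSX3 and SPANXB1, are not set beside such a class. Of tested genes listed at 0 with DMSO and at 5 FPKM or more with DAC, 57.6% were called higher in siLuc and 48.5% in siStau1, and the antigens in that class were called in 8 of 8 cases in each arm. Of tested genes above 0 but under 0.3 FPKM with DMSO and at 5 or more with DAC, only 14.9% and 20.7% were called. The 3 antigens in this class, SSX1, CT45A1 and CT45A10, were called in 1 of 3 cases in siLuc (SSX1) and in 0 of 3 in siStau1. Antigens entered both classes through their level with DAC, and the difference between 8 and 3 genes was not tested. Of tested X chromosome genes outside the antigen families, 12.5% were called higher in siLuc and 8.49% in siStau1. These still include other cancer-testis genes, such as the MAGEA, MAGEB and MAGEC genes, of which 17 were called higher in siLuc and 9 in siStau1. The shares without such genes were not computed, so these values do not describe X chromosome genes at large.

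GAGE genes form an array of near-identical copies, and GAGE2A had the highest level of any antigen in both DAC groups. GAGE2A (chrX:49589529-49596827, plus strand, 5 exons) was at 0 in both DMSO groups, and with DAC at 71.6 FPKM in siLuc and 48.5 in siStau1, which is rank 1482 and 2005 of all genes. GAGE1 (chrX:49589496-49608536) was at 0, 17.2, 0 and 10.7 FPKM, in the order siLuc without DAC, siLuc with DAC, siStau1 without DAC, siStau1 with DAC, which is kept below. GAGE1 and GAGE2A overlap on the same strand, so the split of reads between them is uncertain. GAGE12H was at 0, 8.09, 0 and 5.75 FPKM, and GAGE12J at 0, 1.61, 0 and 0.979. All 4 rose in both arms (q of 0.00162, the lowest in the authors' deposited table, except GAGE12J in siStau1 at 0.0101). GAGE10, at 0, 0.982, 0 and 0.528 FPKM, rose in siLuc (q = 0.0101 in the authors' deposited table) and was not tested in siStau1. The remaining GAGE genes are GAGE13, at 0.140 FPKM in siLuc DAC and 0 elsewhere, and 7 listed at 0 in all groups.

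A group of GAGE copies shares 1 promoter sequence but was listed at different FPKM. GAGE2A, GAGE12H, GAGE12J, GAGE12C, GAGE12D and GAGE12E have the same 300 bases, printed above for GAGE2A, while their FPKM in siLuc DAC ran from 0 (GAGE12C, GAGE12D and GAGE12E) to 71.6. Their transcripts are also near-identical. Of the 75-base windows along the longest transcript, 29.7% in GAGE2A, 16.6% in GAGE12H, 16.1% in GAGE12J and 0% in GAGE12C, GAGE12D and GAGE12E occur in no other gene. How reads that match several copies were assigned is not given in the sources used here, so the level of one copy cannot be told apart from that of another. The sum over the 13 GAGE genes, which depends less on that split, was 0, 99.6, 0 and 66.5 FPKM.

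PAGE genes gave the largest family sum in both DAC groups, at 1.13, 119, 0.688 and 111 FPKM. PAGE1 (chrX:49687450-49695993, minus strand), the neighbour of the GAGE array, was at 0, 57.5, 0 and 32.5 FPKM. All of its 75-base windows are found in no other gene. PAGE2B (chrX:55075063-55078909) was at 0, 25.4, 0 and 33.5 FPKM, PAGE2 (chrX:55089008-55092842) at 0, 16.1, 0 and 22.5, and PAGE5 (chrX:55220355-55224108) at 0, 19.1, 0 and 21.2. All 4 rose in both arms (q = 0.00162 in the authors' deposited table). PAGE3, which lies beside PAGE5, was at 0, 0.0449, 0 and 0.119 FPKM and was not tested.

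PAGE4 (chrX:49829260-49833973), known from prostate and other reproductive tissue, was the exception among the PAGE genes tested. It was at 1.13 FPKM without and 1.19 with DAC in siLuc, and at 0.688 and 1.45 in siStau1. It was not called in either DAC comparison (q of 0.978 in siLuc and 0.688 in siStau1 in the authors' deposited table). Its promoter window, with 4 CpG, shares 45.0% of bases with that of PAGE1 by edit distance, close to the 44.7% of GAGE2A and PAGE2. PAGE2 and PAGE2B share 80.3%, PAGE2 and PAGE5 68.7%, and GAGE2A and PAGE1 62.3%.

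CTAG2 (chrX:154651972-154653579, minus strand), which codes for the antigen LAGE-1, was at 0, 26.8, 0 and 12.7 FPKM and rose in both arms (q = 0.00162 in the authors' deposited table). CTAG1A and CTAG1B, the 2 copies that code for NY-ESO-1, were listed at 0 in all 4 groups. Only 13.2% and 13.6% of their windows are found in no other gene, against 64.6% for CTAG2. As for GAGE, an uneven assignment of shared reads cannot be told apart from silence of these copies.

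SSX1 (chrX:48255317-48267444, plus strand), one of the SS18 fusion partners, was the highest of the SSX genes at 0.241, 25.7, 0.0542 and 16.7 FPKM. Its log2 ratio of FPKM + 0.1, DAC over DMSO, was 6.24 in siLuc and 6.77 in siStau1. It was called in siLuc (q = 0.0360) and not in siStau1 (q = 0.547 in the authors' deposited table), although the ratio was no smaller there. SSX3 was at 0, 2.30, 0 and 3.22 FPKM and rose in both arms (q = 0.00162 in the authors' deposited table). SSX5, at 0, 0.573, 0.0196 and 1.09 FPKM, and the pseudogene SSX6P, at 0, 0.670, 0 and 0.467, were called in siLuc (q of 0.00162 and 0.0266 in the authors' deposited table). In siStau1 SSX5 was not called (q = 0.586 in the authors' deposited table) and SSX6P was not tested. SSX2, the other well known fusion partner, was at 0 in all groups, and 0% of its windows are found in no other gene.

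CT45A genes lie in an array (chrX:135713453-135947139). CT45A10 (chrX:135881063-135889086, minus strand) was at 0.0580, 12.5, 0.0490 and 13.6 FPKM, and CT45A1 (chrX:135713453-135723539) at 0.144, 6.84, 0.280 and 8.80. The log2 ratio of FPKM + 0.1 was 6.32 and 6.52 for CT45A10 in siLuc and siStau1, and 4.83 and 4.55 for CT45A1. Neither was called, with q from 0.595 to 0.604 in the authors' deposited table. Their FPKM with DAC were above those of SPANXB1 and SSX3, which were listed at 0 with DMSO and were called. Of their windows 32.9% and 12.2% are found in no other gene. Of the 10 CT45A genes 7 were listed at 0 throughout.

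SPANXB1 (chrX:141002591-141003706) was at 0, 3.88, 0 and 3.67 FPKM and SPANXD at 0, 0.568, 0 and 1.10, and both rose in both arms (q from 0.00162 to 0.0228 in the authors' deposited table). XAGE2, at 0, 0.353, 0 and 1.09 FPKM, rose in siStau1 (q = 0.00632), and XAGE5, at 0, 0.782, 0 and 0.481, in siLuc (q = 0.0234 in the authors' deposited table). XAGE3 was at 0, 0.164, 0 and 0.669 FPKM and was not called in siStau1 (q = 0.0619 in the authors' deposited table). XAGE1A and XAGE1B share all their windows and reached 0.164 and 0.355 FPKM at most. The 12 CT47A genes, an array at chrX:120930250-120985788, were listed at 0 in all 4 groups. Their windows are found in no other gene in at most 6.13% of cases, and 10 of them have none.

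**Figure D2:**
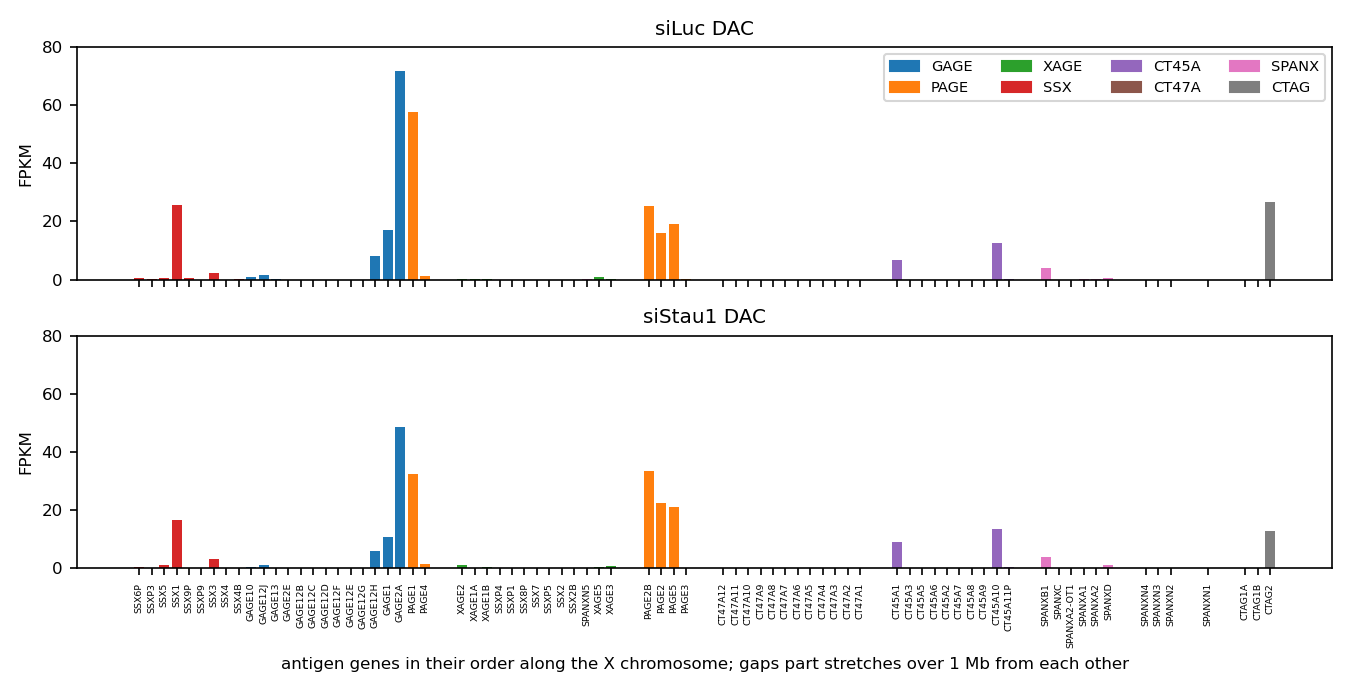
FPKM of the 76 antigen genes on the X chromosome, in their order along it, in siLuc DAC (top) and siStau1 DAC (bottom). Bars are coloured by family and gaps part stretches more than 1 Mb from each other. The bars of GAGE2A and PAGE1 stand next to each other at 71.6 and 57.5 FPKM in siLuc DAC, and the 12 CT47A genes show no bar.

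Along the X chromosome the 76 antigens fell into 9 stretches, parted by gaps of over 1 Mb. The first (chrX:48107992-49833973) holds 24 antigens, of which 9 were at 1 FPKM or more in a DAC group. These are 4 of 13 GAGE, 2 of 2 PAGE and 3 of 9 SSX genes. The second (chrX:52369030-52868068) holds 13, of which 1, XAGE2, was that high, and all 7 of its SSX genes were under 1 FPKM. The third (chrX:55075063-55264846) holds PAGE2B, PAGE2, PAGE5 and PAGE3, with 3 of 4 that high. Of other genes within the first stretch, 3 of 31 tested rose with DAC in siLuc and 1 of 28 in siStau1, near the shares over all genes. In the stretch of XAGE2 and in that of PAGE2, 1 other gene was tested per arm and 0 were called, and in the CT45A stretch 1 of 1 was called in both arms. Other genes here are all genes outside the antigen families, and cancer-testis genes of other families were not taken out.

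**Figure D3:**
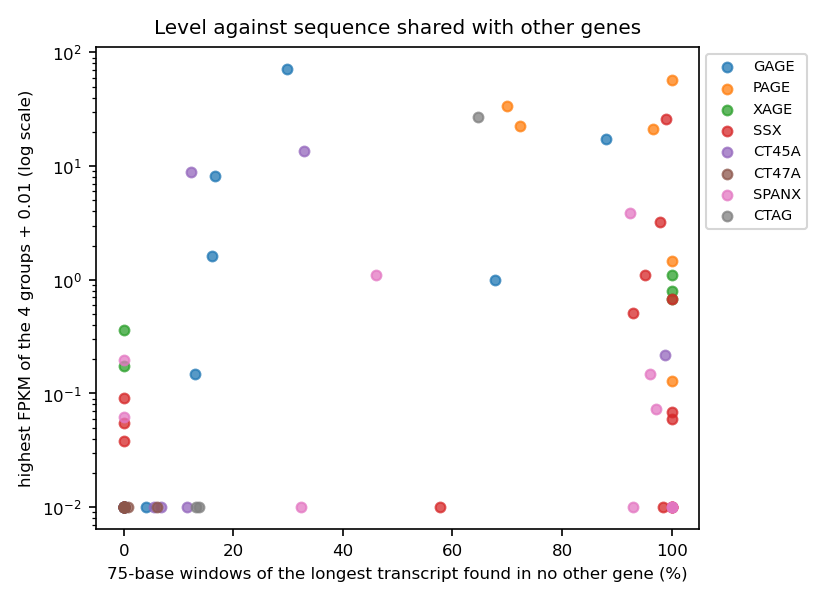
Highest FPKM of the 4 groups, with 0.01 added, on a log axis against the share of 75-base windows of each antigen's longest transcript that is found in no other gene, coloured by family. Points on the bottom line are listed at 0 in all groups. None of the 29 genes at 0% reaches 1 FPKM.

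Sequence shared between copies went with which antigens were listed at 0. Of the 77, 29 have no 75-base window of their own, and 0 of these reached 1 FPKM while 22 were at 0 in all groups. The count was also 29 with windows of 50 and of 100 bases. Of the 18 antigens at 1 FPKM or more, the median share of own windows was 80.1%, from 12.2% for CT45A1 to 100%. Of the 40 antigens at 0 in all groups, the median was 0%, but 8 have 90% or more, among them SPANXN3 and SPANXN4. These shares are a description of the transcripts, and their part in the levels was not tested.

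Staufen1 binds structured, double-stranded RNA, and its own transcript was not called lower with its siRNA. STAU1 was at 35.5 FPKM without and 33.7 with DAC in siLuc, and at 30.0 and 27.1 in siStau1, with q of 0.767 and 0.685 for siStau1 against siLuc in the authors' deposited table. The arms are therefore named by their labels, and a direction between them is a direction between the groups labelled siStau1 and siLuc.

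Between the siStau1 and siLuc arms, no antigen was called. With DMSO 1 antigen was tested (PAGE4), 0 were called and 0 had an unadjusted p under 0.05 in the authors' deposited table, where 0.799% of all genes tested were called. With DAC 22 were tested and 0 called, where 0.904% of all genes were. Of those 22, 2 had an unadjusted p under 0.05 in the authors' deposited table: CTAG2 (p = 0.0149, q = 0.128) and PAGE1 (p = 0.0383, q = 0.236). CTAG2 had a log2 ratio of -1.07 on the FPKM + 0.1 scale, while genes in the same of 20 GC bins had a median of -0.64 in that comparison. PAGE1 had a ratio of -0.82, with a median of -0.15 for its bin.

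**Figure D4:**
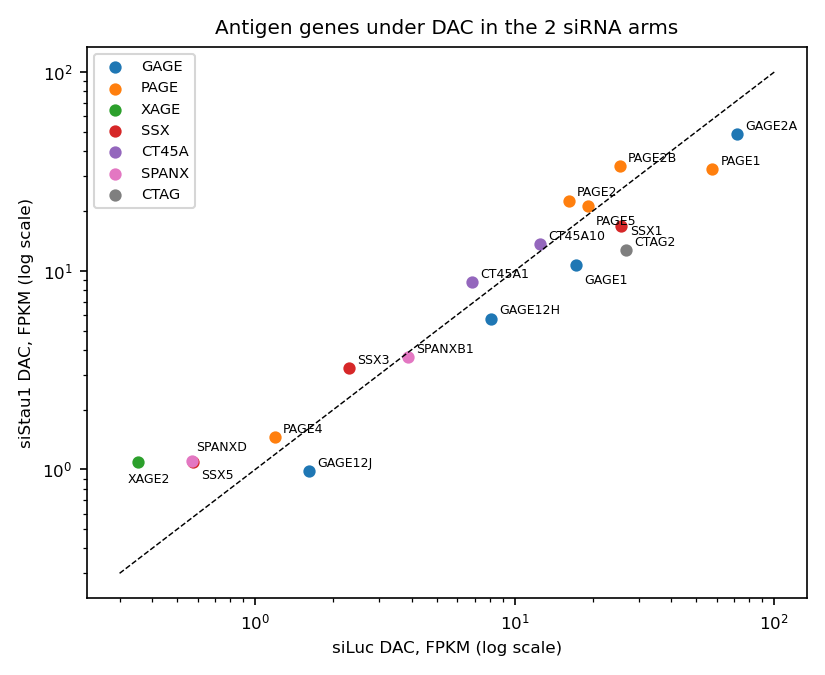
FPKM in siStau1 DAC against siLuc DAC, both on log axes, for the 18 antigen genes at 1 FPKM or more in either group, coloured by family, with a dashed line where both are equal. The 4 GAGE genes, PAGE1, SSX1 and CTAG2 lie below the line, while PAGE2, PAGE2B and PAGE5 lie above it.

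Under DAC the families did not all stand on the same side, though none of these differences was called. Of the 18 antigens at 1 FPKM or more in a DAC group, 10 were higher in siStau1 DAC and 8 lower. Lower were the 4 GAGE genes (log2 ratios of FPKM + 0.1 from -0.68 to -0.49), PAGE1, SSX1 (-0.62), CTAG2 and SPANXB1 (-0.08). Higher were PAGE2 (0.48), PAGE2B (0.40), PAGE5 (0.15), PAGE4 (0.27), SSX3 (0.47), SSX5 (0.82), CT45A1 (0.36), CT45A10 (0.11), SPANXD (0.85) and XAGE2 (1.39). The median over all genes tested was -0.14. When FPKM were scaled so that protein-coding genes summed to the same value in each group, SPANXB1 moved to 0.06 and the PAGE family sum from -0.10 to 0.04, and the other 17 genes kept their side. The GAGE copies share sequence and are not separate observations. The response to DAC itself, as a log2 ratio on the same scale, differed between arms by a median of 0.17 over the 18 antigens, from -1.07 for CTAG2 to 1.39 for XAGE2, and this difference was not tested. With 0.01 in place of 0.1 added to each FPKM, the median was 0.033.

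Set against the rest of the genome, 25 genes were listed at 0 in both DMSO groups and at 10 FPKM or more in both DAC groups, and 7 of them are antigens: GAGE2A, GAGE1, PAGE1, PAGE2, PAGE2B, PAGE5 and CTAG2. Of the 3585 protein-coding genes at 0 in both DMSO groups, 3.43% reached 1 FPKM in both DAC groups, and of the 61 antigens among them 16.4% did. Other cancer-testis genes, in lists of their own, were called in the same comparisons. Of 32 MAGEA, MAGEB and MAGEC genes, 21 were tested in each arm, and 17 rose in siLuc and 9 in siStau1, where 8.71% and 4.56% of all genes tested were called higher. The median log2 ratio of FPKM + 0.1 over the 32 genes was 3.89 and 3.82. It was 0 over all genes of the table in both arms, and 0.23 and 0.11 over the genes tested in siLuc and siStau1. MAGEA4 was at 0, 97.5, 0 and 119 FPKM. Of 25 further cancer-testis genes 18 were tested and 9 rose in each arm, set against the same shares, with list medians of 2.83 and 3.18. Among them were TDRD1, a germline Tudor protein, at 0, 4.73, 0 and 6.16 FPKM and DPPA2 at 0, 4.24, 0 and 5.21. Of the MAGE list 2 genes, and of the further list 4, were tested between the DMSO groups. As for the antigens, most genes tested had thus passed the authors' filter through their level with DAC. The share of tested genes that rose is therefore not a share of the list. No gene of either list was called between siStau1 and siLuc.

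Of 24 genes for factors that silence or switch on such promoters, all tested in both arms, 4 rose and 2 fell in siLuc, and 2 rose and 2 fell in siStau1. Over all genes tested, 8.71% were called higher and 4.78% lower in siLuc, and 4.56% and 2.89% in siStau1. With 24 genes, the difference from these shares was not tested. CTCFL (BORIS), the germline relative of CTCF, rose in both arms at 0, 3.34, 0 and 3.67 FPKM. ETS1, an ETS transcription factor, rose in both at 1.75, 12.9, 1.32 and 9.46. ATRX, a chromatin remodeller, fell in both at 26.1, 7.60, 45.1 and 18.5, and was the 1 gene of this list called between the arms, higher in siStau1 DAC (q = 0.0343 in the authors' deposited table). HDAC2, a histone deacetylase, fell in both at 101.6, 45.9, 137 and 66.5. DNMT1, the maintenance methyltransferase that decitabine traps, was at 114.8, 86.2, 204 and 79.4 FPKM and was not called.

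Markers of the labelled cells and of others were read in the same table. Of 10 markers of colorectal epithelium, EPCAM, KRT8, KRT18 and KRT19 were above 100 FPKM in all 4 groups, while CEACAM5 and VIL1 were under 1 in all and CDX1 stood at 0 without DAC. Of this list 3 of 8 tested rose with DAC and 1 fell in siLuc, and 4 of 8 rose in siStau1. The shares over all genes tested were 8.71% higher and 4.78% lower in siLuc, and 4.56% and 2.89% in siStau1. EPCAM fell in siLuc, while KRT19, KRT20 and CDX1 rose in both arms and KRT18 in siStau1. KRT20, at 1.16, 6.24, 3.09 and 20.2 FPKM, was also called higher in siStau1 than in siLuc with DAC (q = 0.00162 in the authors' deposited table). The part of these changes in the antigen levels was not tested. Of 5 spermatid markers PRM1, PRM2 and TNP1 were at 0 in all groups and the sum was at most 0.698 FPKM. That sum was ACR in siLuc DMSO. ACR was at 0 in siStau1 DMSO and was called lower there than in siLuc DMSO (q = 0.0157 in the authors' deposited table). The summed level of 5 germ cell markers was 0.0399 and 2.29 FPKM with DMSO and 32.3 and 34.6 with DAC in siLuc and siStau1. Of these, DAZL (0, 12.3, 0 and 12.6 FPKM) and DDX4 rose in both arms and MAEL in siLuc. NANOS3 made up most of the siStau1 DMSO sum and stood at 0.359 FPKM with DAC in that arm (log2 ratio of -2.32 on the FPKM + 0.1 scale, not called). It was at 0 in siLuc DMSO and was called higher in siStau1 than in siLuc with DMSO (q = 0.00293 in the authors' deposited table). The part of these markers in the antigen levels was not tested. Summed leukocyte markers were between 0.180 and 2.78 FPKM, fibroblast markers between 1.07 and 9.50 and endothelial markers between 0.0666 and 1.57. All 3 sums were higher in both DAC groups than in both DMSO groups. Of the markers in these sums, PTPRC, COL1A1 and VWF were called higher with DAC in siStau1, and PECAM1 in siLuc. In bulk RNA, more cells with a transcript and more transcript per cell cannot be told apart.

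Of the 15 names outside the antigen families, SSX2IP was the 1 gene called. It codes for a centrosome and adhesion protein, lies on chromosome 1, and went the other way from the antigens. It was at 30.6 FPKM without and 7.98 with DAC in siLuc, and at 44.3 and 14.4 in siStau1. It fell with DAC in both arms (q = 0.00162 in the authors' deposited table). The 14 CTAGE genes, on autosomes, stayed at or under 0.408 FPKM in every group.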

How the data were processed

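Total RNA of 4 groups of 2 libraries was used. Per the file headers, the authors deposited a table in Cuffdiff layout with 1 FPKM per gene and group, pooled over the 2 libraries, and a p-value and q-value per pair of groups. The submitters' processing notes list HISAT2 2.1.0, Cuffdiff 2.2.1, Cuffnorm 2.2.1 and the build hg38, with no role or order. How reads that match several copies were assigned is not given in the sources used here. The deposited tables of J2-bound RNA list repeat elements with neither gene names nor positions and were not used here.

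From the table, each group's FPKM was taken, and log2 ratios were computed with 0.1 FPKM added to each value, which understates changes of low genes. Calls are the authors' q-values under 0.05, over all tests of the table. The count and limma tests planned for values per library could not be used, since the table has none. Ratios and the Benjamini-Hochberg step were tested on simulated data, and motif counts on short strings with known answers (Python 3.11.15, pandas 2.3.3, numpy 2.4.6). Positions and transcripts come from GENCODE 29 on GRCh38, with all gene identifiers matched. Promoters come from RefSeq on GRCh38.p14, matched by symbol or, where the symbol was absent, by the linked Ensembl identifier. Windows of 75 bases of each antigen's longest transcript were compared with all transcripts of other genes.

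Genes named are antigens at 1 FPKM or more in a group, those called, the highest of each family and up to 6 called genes per other list; those named beyond this rule were chosen after their values were seen. The members and lists were chosen with earlier results of these data known. Alternatives covered the q limit, the adjustment, the pseudocount, filters, GC centring and scaling.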

Additional observations from a re-analysis of the deposited data

How the results depend on the processing

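The number of antigens that rose with DAC was 12 to 17 in siLuc and 12 to 13 in siStau1 under a q limit of 0.01, adjustment within the comparison, protein-coding genes only, antigen names only and a minimum of 1 FPKM, and 0 were called between siStau1 and siLuc under each. The log2 ratio of summed antigen FPKM, with 0.1 added, was 7.41 in siLuc (7.49 and 6.82 with 0.01 and 1 added, 7.40 with GC centring in 20 bins, 7.40 with equal protein-coding sums, 7.02 without GAGE2A). In siStau1 it was 7.65 (7.76, 6.85, 7.66, 7.70 and 7.32 in the same order). For siStau1 against siLuc it was -0.55 with DMSO (-0.58, -0.34, -0.51, -0.47, and -0.30 without PAGE4) and -0.31 with DAC (-0.25 with GC centring, -0.17 with equal protein-coding sums, -0.24 without GAGE2A). The median difference of the DAC response between arms was 0.17, and 0.033 and 0.13 with 0.01 and 1 added. Antigens at 1 FPKM or more numbered 15 in siLuc DAC (28 at 0.1 or more, 7 name families by their sums) and 17 in siStau1 DAC (27 and 7). The median promoter CpG number was 10, and 9 with each distinct promoter counted once. The cause of each shift was not tested. Equal protein-coding sums, leaving out the top antigen and the other window lengths were chosen after seeing the data. No paired analysis was possible because the table gives 1 value per group, and for the same reason no library could be left out.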
